A study of Arabidopsis thaliana with 20 samples.

Results

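The 4 libraries of small RNAs from Arabidopsis thaliana plants of the ocp11 mutant described here comprise 2 with a G:U hairpin RNA against EIN2 (libraries 4 and 6) and 2 with a perfectly paired (WT) hairpin RNA against the same gene (libraries 10 and 11). They were chosen by sample title from 20 labelled samples, of which 15 had read counts that were used. All 4 are whole plants of ecotype Columbia at 3 weeks, and all 4 carry the ocp11 mutation, so the hairpin is the labelled difference between the groups. The genotype label of the G:U libraries names the WT hairpin. The titles were followed, and the table lists 421236 and 802147 sense reads on the altered (GU) stem in libraries 4 and 6. The series set hairpin structures side by side for how they are processed into small RNAs. The other libraries used, for comparison, are also from plants at 3 weeks. They are of the nrpd1a mutant (2 G:U, 2 WT), of Col-0, the wild type (2 G:U, 1 WT), and of Columbia in a separate first table (2 G:U, 2 WT). The ocp11, nrpd1a and Col-0 libraries, 11 in all, share the fits below. Nothing in the labels ties the libraries to separate lines, plants or pools, so the p-values of the comparisons measure the spread between libraries, which may be technical.

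A hairpin RNA transgene is transcribed into an RNA that folds back on itself, and its double-stranded stem is cut by Dicer-like (DCL) enzymes into small interfering RNAs (siRNAs) of the sense and the antisense strand. In Arabidopsis the length of an siRNA points to the enzyme that cut it: DCL4 makes mainly 21 nt products, DCL2 makes 22 nt products and DCL3 makes 24 nt products. An antisense siRNA pairs with the target mRNA. ARGONAUTE4 (AGO4, AT2G27040, chromosome 2 from 11536502 to 11542391 on the reverse strand, TAIR10.1), for which the RefSeq gene table gives the synonym OCP11, binds mainly 24 nt siRNAs and takes part in RNA-directed DNA methylation. EIN2 (AT5G03280, chromosome 5 from 787428 to 793404 on the forward strand, TAIR10.1) is a membrane protein that ethylene signalling needs. The labels leave unsaid which stretch of EIN2 forms the stem, and no siRNA sequence is therefore printed.

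The values are raw counts of reads on the stem by strand and length from 18 to 25 nt, with no library totals, so the amount of siRNA per library was not compared. Shares within a library are used throughout. Stem reads numbered 521435 and 1015676 in G:U libraries 4 and 6, and 287622 and 464123 in WT libraries 10 and 11. A single class of 1 strand and 1 length held between 239 and 382666 reads. The widest 95% Wilson interval reached 0.308 percentage points to either side for a size share and 0.182 for an antisense share. Intervals cover counting error only. The 4 run entries of a library were summed and counted as 1 library. They ranged over 18.97 to 19.45% antisense reads in G:U library 4 and 20.69 to 21.36% in G:U library 6, against 45.8 to 46.7% in WT library 10 and 46.1 to 46.6% in WT library 11.

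Antisense siRNAs were the minority of the stem reads with the G:U hairpin and close to equal in number to sense siRNAs with the WT hairpin. The antisense share was 19.22% (95% Wilson interval 19.1 to 19.3) in G:U library 4 and 21.02% (20.9 to 21.1) in library 6, against 46.33% (46.1 to 46.5) in WT library 10 and 46.31% (46.2 to 46.5) in WT library 11. The groups did not overlap. The means were 20.1 ± 1.28% for G:U libraries and 46.3 ± 0.0148% for WT libraries (SD, n = 2 each), a difference of -26.2 percentage points. The difference was larger than the spread within either group, but an exact permutation test of 2 against 2 libraries cannot go below p = 0.333, which is the two-sided value it gave. Sense reads outnumbered antisense reads 4.20-fold and 3.76-fold in G:U libraries 4 and 6, against 1.16-fold in each of WT libraries 10 and 11.

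**Figure D1:**
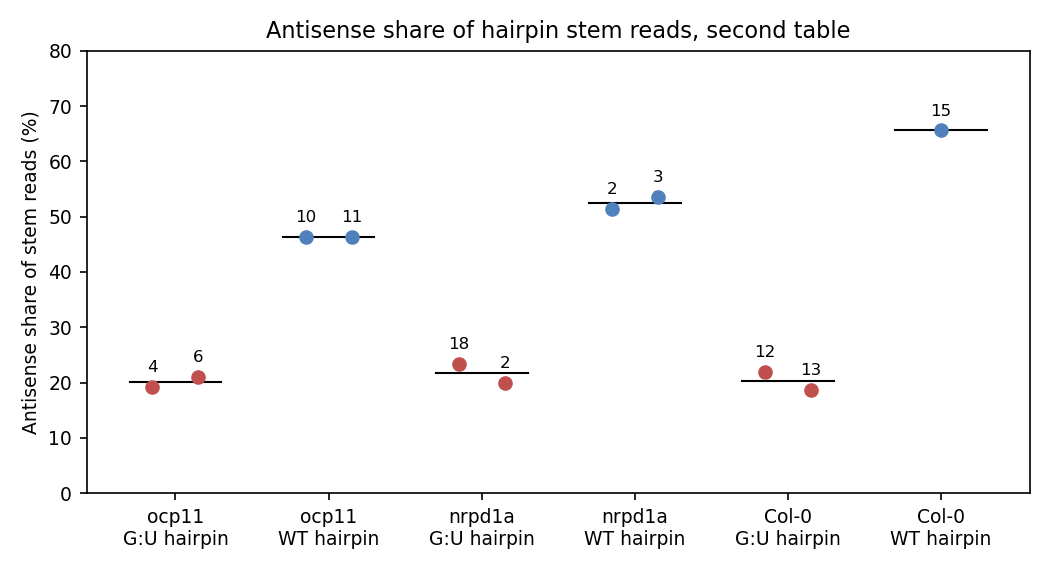
Antisense share of the hairpin stem reads in percent (vertical axis) for each of 11 libraries of the second table, grouped by background and hairpin. Points are libraries with their numbers, and lines are group means. The ocp11 G:U libraries lie at 19.22 and 21.02%, beside the other G:U libraries, and the ocp11 WT libraries lie at 46.3%, below the WT libraries of nrpd1a and Col-0.

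The ratio of antisense to sense reads of the same length was lower with the G:U hairpin at 7 of 8 lengths (87.5%), with groups that did not overlap. At 21 nt, the DCL4 length, there were 0.228 and 0.226 antisense reads per sense read in G:U libraries 4 and 6, against 0.993 and 1.03 in WT libraries 10 and 11. At 22 nt, the DCL2 length, the ratios were 0.204 and 0.140 in the G:U libraries, against 0.687 and 0.694 in the WT libraries. At 24 nt, the DCL3 length, they were 0.260 and 0.220 in the G:U libraries, against 0.701 and 0.661 in the WT libraries. In all 3 classes both G:U libraries lay below both WT libraries. At 18, 19 and 20 nt the ratios ran from 0.163 to 0.241 in the G:U libraries and from 0.678 to 0.840 in the WT libraries. At 25 nt, where reads are few, the ratios were 0.374 and 0.310 in the G:U libraries, against 1.03 and 0.949 in the WT libraries.

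The 23 nt class was the exception. It had 0.528 antisense reads per sense read in G:U library 4 and 1.34 in library 6, against 0.879 in WT library 10 and 0.824 in WT library 11. The G:U libraries thus lay on opposite sides of the WT libraries, and the groups overlapped at this length alone. Without the 23 nt reads the antisense share was 18.5% and 17.3% in G:U libraries 4 and 6, against 46.3% and 46.4% in WT libraries 10 and 11.

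**Figure D2:**
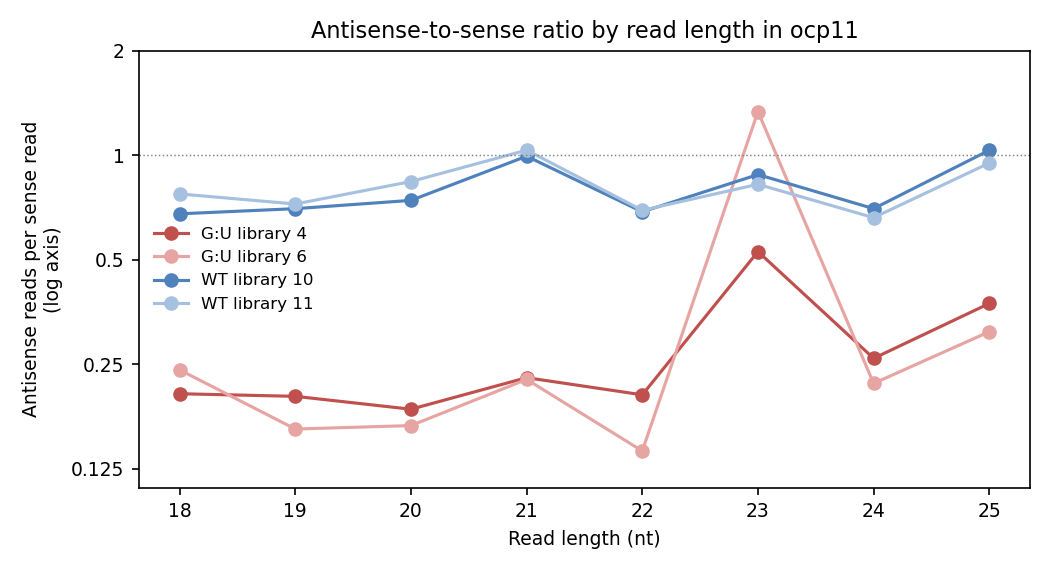
Antisense reads per sense read (vertical axis, log scale) at each read length from 18 to 25 nt (horizontal axis) in the 4 ocp11 libraries. Points are single libraries and the dotted line marks equal numbers on both strands. Both G:U libraries lie below both WT libraries at 7 of 8 lengths, and at 23 nt G:U library 6 reaches 1.34 while G:U library 4 stays at 0.528.

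These ratios were tested with limma on log2 values with a pseudocount of 0.5, in a fit over 11 libraries of the same table. The ratio fell with the G:U hairpin at 7 of 8 lengths (87.5% of the lengths tested, Benjamini-Hochberg adjusted p under 0.05). The log2 difference was -2.16 at 21 nt (SE 0.211), -2.03 at 22 nt (SE 0.212) and -1.51 at 24 nt (SE 0.211), and it lay between -2.17 and -1.54 at 18, 19, 20 and 25 nt. The 23 nt ratio was not called, with a log2 difference of -0.02 (SE 0.237, limma adjusted p = 0.932). That value rests on which G:U library is used: it was 0.65 without G:U library 4 and -0.69 without G:U library 6, and each passed the threshold (limma adjusted p = 0.00311 and 0.00184). The highest adjusted p among the 7 called lengths was 1.35e-08. All 8 ratios of a library carry its strand balance, so the 7 calls are not separate findings beside the difference in antisense share. The lengths of a library are thus not independent, which makes these p-values too small. With each length tested on its own spread between libraries, the 7 limma adjusted p-values ran from 0.000187 to 0.000561.

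Length profiles were then compared within each strand, as the percentage of the strand's reads at each length. The 21 nt class was the largest on both strands of all 4 libraries. Antisense reads of 21 nt made up 54.9% and 40.5% in G:U libraries 4 and 6, against 59.9% and 54.8% in WT libraries 10 and 11, and sense reads of 21 nt made up 57.2% and 47.7% in the G:U libraries, against 52.1% and 45.7% in the WT libraries. The groups overlapped on both strands. The 22 nt class held 6.33% and 4.62% of antisense reads in the G:U libraries, against 6.43% and 6.45% in the WT libraries, so that both G:U libraries lay lower, library 4 by little. Of the sense reads, 22 nt held 7.38% and 8.75% in the G:U libraries, against 8.08% and 8.01% in the WT libraries.

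The 24 nt class, which AGO4 binds in wild-type plants, held 17.7% and 20.3% of antisense reads in G:U libraries 4 and 6, against 14.2% and 20.1% in WT libraries 10 and 11. Of the sense reads it held 16.3% and 24.6% in the G:U libraries, against 17.5% and 26.2% in the WT libraries. On the sense strand each group had 1 library with a high and 1 with a low 24 nt share, and the spread within a group was wider than the difference between the groups. The number of 21 nt reads per 24 nt read was 3.52 and 1.94 on the sense strand of the G:U libraries, against 2.97 and 1.74 in the WT libraries. On the antisense strand it was 3.09 and 1.99 in the G:U libraries, against 4.21 and 2.73 in the WT libraries. No ordering of the hairpins by the balance of DCL4-length and DCL3-length reads came out of either strand, since the groups overlapped on both.

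**Figure D3:**
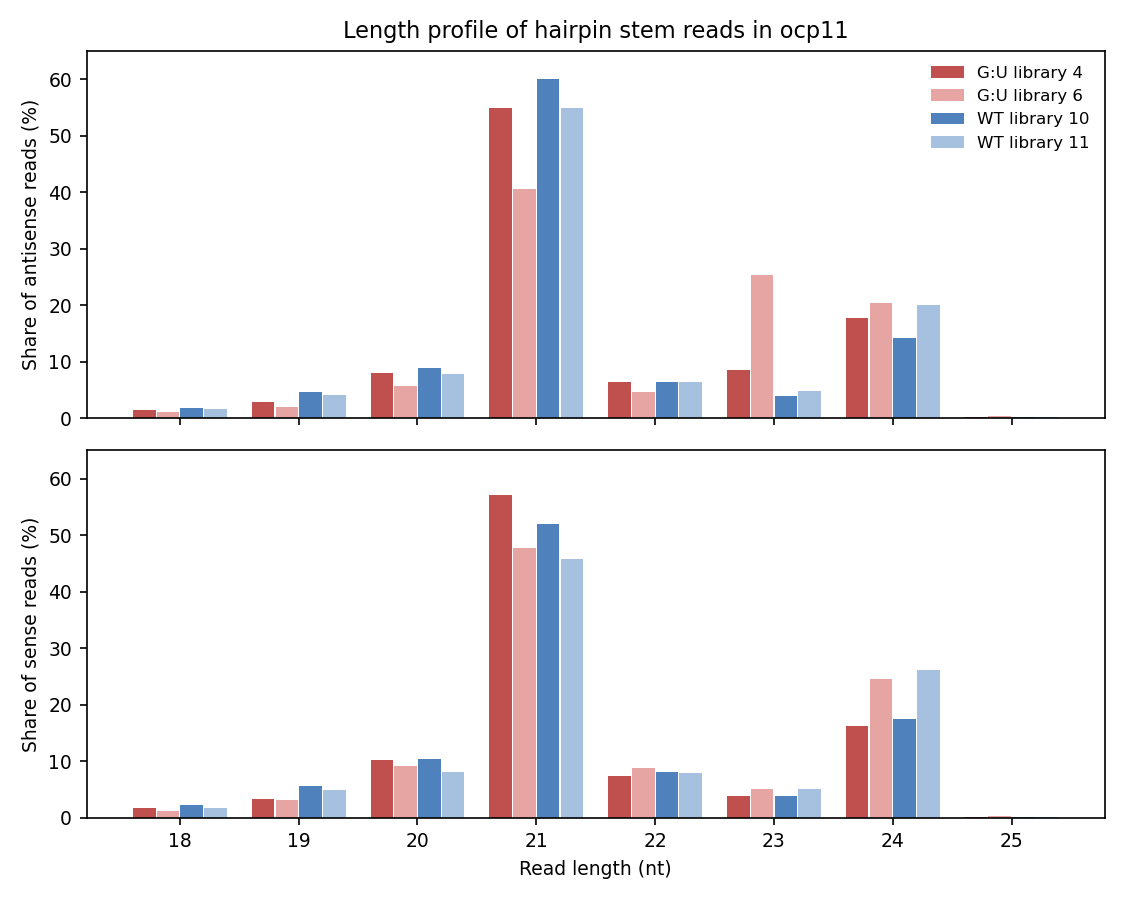
Share of a strand's stem reads in percent (vertical axis) by read length in nt (horizontal axis), for antisense reads (upper panel) and sense reads (lower panel) of the 4 ocp11 libraries, with G:U libraries left of WT libraries. Bars are single libraries. The 21 nt bars are the tallest throughout, and the antisense 23 nt bar of G:U library 6 reaches 25.4% against 3.94 and 4.86% in the WT libraries.

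Among shares of a strand, the class with the largest rise with the G:U hairpin was antisense 23 nt, a length that is the main product of none of these enzymes. It held 8.54% of antisense reads (95% Wilson interval 8.37 to 8.72) in G:U library 4 and 25.4% (25.2 to 25.6) in library 6, against 3.94% (3.83 to 4.04) in WT library 10 and 4.86% (4.77 to 4.95) in WT library 11. The groups did not overlap, and the G:U libraries differed from each other more than either WT library did from G:U library 4. In G:U library 6 it was the second largest antisense class and exceeded the 24 nt class 1.25-fold, whereas in the other 3 libraries 24 nt was second. The 4 run entries lay close together, with 25.4 to 25.5% in G:U library 6 and 8.31 to 8.68% in G:U library 4. Sense reads of 23 nt gave 3.85% and 5.06% in the G:U libraries, against 3.86% and 5.09% in the WT libraries, and the groups overlapped.

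Read counts of the 16 classes of strand and length were tested with edgeR's quasi-likelihood test, with the strand's total reads as offset and over the same 11 libraries. Between the hairpins in ocp11, 4 of 16 classes passed a Benjamini-Hochberg adjusted p under 0.05 (25% of the classes tested), 2 higher (12.5%) and 2 lower (12.5%) with the G:U hairpin. Antisense 23 nt reads rose by 1.95 on the log2 scale (SE 0.334, edgeR adjusted p = 0.000408), which is 3.86-fold. With the reads of both strands as the total it was 0.61 (edgeR adjusted p = 0.0341), below the 0.91 of sense 25 nt on that scale (adjusted p = 0.00194). Wherever the reads of both strands serve as the total of a fit, that total was scaled by edgeR's TMM factors. With the strand's own total again as offset, the antisense 23 nt difference was 0.96 without G:U library 6 and 2.53 without G:U library 4. Leaving out G:U library 4 also brought the number of called classes to 10, and leaving out WT library 10 brought it to 2. With the ocp11 libraries alone in the fit, antisense 23 nt was the 1 class that passed, and with the first table's 4 libraries added no class did (edgeR adjusted p = 0.0677 for antisense 23 nt). None of the 16 passed in limma's test of log2 odds with each class on its own spread, where the 4 called classes had adjusted p = 0.0532 for sense 19 nt, 0.0546 for antisense 19 and 25 nt and 0.0900 for antisense 23 nt.

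The 19 nt class fell on both strands. It held 2.79% and 1.94% of antisense reads in G:U libraries 4 and 6, against 4.62% and 4.16% in WT libraries 10 and 11, a log2 difference of -0.89 (SE 0.202, edgeR adjusted p = 0.00342). It held 3.29% and 3.18% of sense reads in the G:U libraries, against 5.69% and 4.96% in the WT libraries, a log2 difference of -0.72 (SE 0.181, edgeR adjusted p = 0.00585). Both G:U libraries lay below both WT libraries on each strand. The sense call was lost without WT library 10 (-0.62, edgeR adjusted p = 0.0682) and when the reads of both strands served as the total (-0.31, adjusted p = 0.237). Shares of a strand add up to a fixed total, so a larger 23 nt share lowers the others. With 23 nt reads left out, the antisense 19 nt difference was -0.70 (edgeR adjusted p = 0.00577).

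The fourth called class was the small antisense 25 nt class. It held 0.282% and 0.383% of antisense reads in G:U libraries 4 and 6, against 0.185% and 0.227% in WT libraries 10 and 11, a log2 difference of 0.69 (SE 0.196, edgeR adjusted p = 0.0111). The direction depends on the scale, since with the reads of both strands as the total it was -0.65 (adjusted p = 0.0332). The call was also lost without G:U library 6 (0.45, edgeR adjusted p = 0.0741) and without WT library 10 (0.56, adjusted p = 0.141).

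The other 12 classes did not pass. Their log2 differences ran from -0.42 for sense 18 nt to 0.49 for sense 25 nt (edgeR adjusted p = 0.197 for both). They were -0.27 (SE 0.183) for antisense 21 nt, 0.10 (SE 0.173) for sense 21 nt, 0.15 (SE 0.196) for antisense 24 nt and -0.10 (SE 0.225) for sense 24 nt. A class that did not pass is not shown to be equal in both groups. In a single class, hairpin labels arranged at random leave groups of 2 and 2 libraries without overlap with a probability of 0.333. Beside that rate, 7 of all 16 classes (43.8%) had groups that did not overlap, 2 with the G:U libraries higher (12.5%) and 5 with them lower (31.2%). The 3 lower ones that were not called were antisense 18 nt, at 1.44% and 1.16% in the G:U libraries against 1.74% and 1.57% in the WT libraries, sense 18 nt, at 1.67% and 1.29% in the G:U libraries against 2.22% and 1.75% in the WT libraries, and antisense 22 nt. The remaining classes overlapped. Antisense 20 nt held 7.94% and 5.68% in the G:U libraries, against 8.93% and 7.82% in the WT libraries. Sense 20 nt held 10.2% and 9.09% in the G:U libraries, against 10.4% and 8.03% in the WT libraries, and sense 25 nt held 0.180% and 0.329% in the G:U libraries, against 0.155% and 0.206% in the WT libraries.

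As shares of all stem reads of a library, antisense 21 nt reads made up 10.6% and 8.51% in G:U libraries 4 and 6, against 27.8% and 25.4% in WT libraries 10 and 11. Sense 21 nt reads made up 46.2% and 37.7% in the G:U libraries, against 27.9% and 24.6% in the WT libraries. Antisense 24 nt reads made up 3.41% and 4.27% in the G:U libraries, against 6.60% and 9.30% in the WT libraries. Antisense reads of both lengths were lower, and sense 21 nt reads higher, in both G:U libraries than in both WT libraries. Antisense 23 nt reads made up 1.64% and 5.34% in the G:U libraries, against 1.82% and 2.25% in the WT libraries, where the groups overlapped.

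The hairpin difference in ocp11 was set beside that in the 2 other backgrounds of the same table, nrpd1a, a mutant of the largest subunit of RNA polymerase IV, and Col-0, the wild type. The antisense share averaged 21.7 ± 2.41% in G:U libraries and 52.5 ± 1.51% in WT libraries of nrpd1a (SD, n = 2 each). In Col-0 it averaged 20.3 ± 2.27% with the G:U hairpin (SD, n = 2) and was 65.6% in the 1 library with the WT hairpin. The G:U minus WT difference of -26.2 percentage points in ocp11 compares with -30.8 in nrpd1a and -45.3 in Col-0. The G:U minus WT difference was -36.5 points in the Columbia libraries of the first table, which is headed as the first sequencing batch. Antisense shares there were 17.0% and 13.6% in G:U libraries 12 and 13, against 62.0% and 41.7% in WT libraries 15 and 17. Columbia WT library 17 thus lay below the ocp11 WT libraries and library 15 above them. Numbers 12, 13 and 15 recur among the Col-0 libraries, and the labels do not say whether these are the same lines. The ocp11 and nrpd1a differences were 4.58 points apart, which an exact permutation test of background labels within each hairpin did not separate (two-sided p = 0.278, where the smallest p is 0.0556). Within the second table the G:U libraries of the 3 backgrounds covered 18.7 to 23.4%, whereas the WT libraries covered 46.3 to 65.6%.

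The antisense 23 nt share spread more between the ocp11 G:U libraries than between those of the other backgrounds. It was 8.54% and 25.4% in ocp11, against 13.2% and 13.4% in nrpd1a and 10.4% and 10.9% in Col-0, so the ocp11 libraries were the lowest and the highest of 6. With the WT hairpin it was 3.94% and 4.86% in ocp11, 1.96% and 1.72% in nrpd1a (347 and 116 reads) and 8.80% in the Col-0 library. The log2 hairpin difference was 1.95 in ocp11, 2.85 in nrpd1a and 0.28 in Col-0, where it rests on 1 WT library. The first table's Columbia libraries gave other levels, 18.9% and 11.9% with the G:U hairpin (libraries 12 and 13). With the WT hairpin they gave 1.38% and 4.10% (libraries 15 and 17), both below the 8.80% of Col-0. The log2 hairpin differences of ocp11 and nrpd1a were -0.90 apart (SE 0.470), which did not pass (edgeR adjusted p = 0.170).

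Tested against nrpd1a, the hairpin difference in ocp11 differed in 2 of 16 classes (12.5%) by edgeR's test of the interaction. Antisense 19 nt was the first, with hairpin differences of -0.89 in ocp11 and 0.37 in nrpd1a, which are -1.26 apart (SE 0.289, edgeR adjusted p = 0.00760). Antisense 22 nt was the other, with -0.24 in ocp11 and 0.70 in nrpd1a, -0.93 apart (SE 0.264, adjusted p = 0.0222), and it was lost without WT library 11 (adjusted p = 0.0528). Antisense shares of 22 nt were 6.33% and 4.62% in ocp11 G:U libraries and 8.12% and 7.95% in nrpd1a G:U libraries, against 6.43% and 6.45% in ocp11 WT libraries and 4.94% and 4.98% in nrpd1a WT libraries. The number of classes that differed was 7 without G:U library 6, 4 without WT library 10 and 1 without WT library 11, and it was 0 with the first table's libraries added, with the reads of both strands as the total, or with limma on log2 odds and each class on its own spread. For the antisense-to-sense ratio, 2 of 8 lengths differed (25%), again 19 nt (-1.51, limma adjusted p = 6.9e-05) and 22 nt (-1.04, adjusted p = 0.00494), and the 22 nt call was lost without WT library 10 (adjusted p = 0.0506) or WT library 11 (0.0551).

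Against Col-0, where the WT hairpin has 1 library that is assumed to vary like the other groups, 5 of 16 classes differed (31.2%), all antisense. Antisense 24 nt reads were 1 of the 5. They made up 17.7% and 20.3% in ocp11 G:U libraries and 12.2% and 11.0% in Col-0 G:U libraries, against 14.2% and 20.1% in ocp11 WT libraries and 25.6% in the Col-0 WT library. The log2 hairpin difference was 0.15 in ocp11 and -1.14 in Col-0, 1.29 apart (SE 0.306, edgeR adjusted p = 0.00972). With the first table's libraries added no class differed, nor with each class on its own spread (limma on log2 odds). With the reads of both strands as the total, 6 classes differed, 2 of them among the 5, and antisense 18, 19 and 20 nt were lost. Without G:U library 4 the number of classes that differed from Col-0 was 8, and without G:U library 6 the antisense 23 nt difference between backgrounds was 0.68 in place of 1.67, still past the threshold (edgeR adjusted p = 0.0335), but DESeq2 did not call it with all libraries (adjusted p = 0.0748). The antisense-to-sense ratio at 24 nt was 0.260 and 0.220 in ocp11 G:U libraries and 0.112 and 0.0900 in Col-0 G:U libraries, against 0.701 and 0.661 in ocp11 WT libraries and 2.19 in the Col-0 WT library. For the ratio, 3 of 8 lengths differed from Col-0 (37.5%), 23, 24 and 25 nt. The first table's Columbia libraries gave other levels. Their antisense 24 nt share was 7.95% and 12.8% in G:U libraries 12 and 13, against 2.12% and 7.41% in WT libraries 15 and 17, higher with the G:U hairpin where Col-0 was lower. Their 24 nt ratio was 0.114 and 0.136 in G:U libraries, against 0.699 and 0.481 in WT libraries, so neither WT library was near the 2.19 of Col-0. On its WT side, the 24 nt contrast with Col-0 therefore rests on 1 library whose values the Columbia WT libraries of the first table did not share. On its G:U side, both ocp11 libraries lay above the Col-0 and Columbia G:U libraries in 24 nt share and ratio. So did nrpd1a G:U libraries 18 and 2, with shares of 13.4% and 15.9% and ratios of 0.191 and 0.180.

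**Figure D4:**
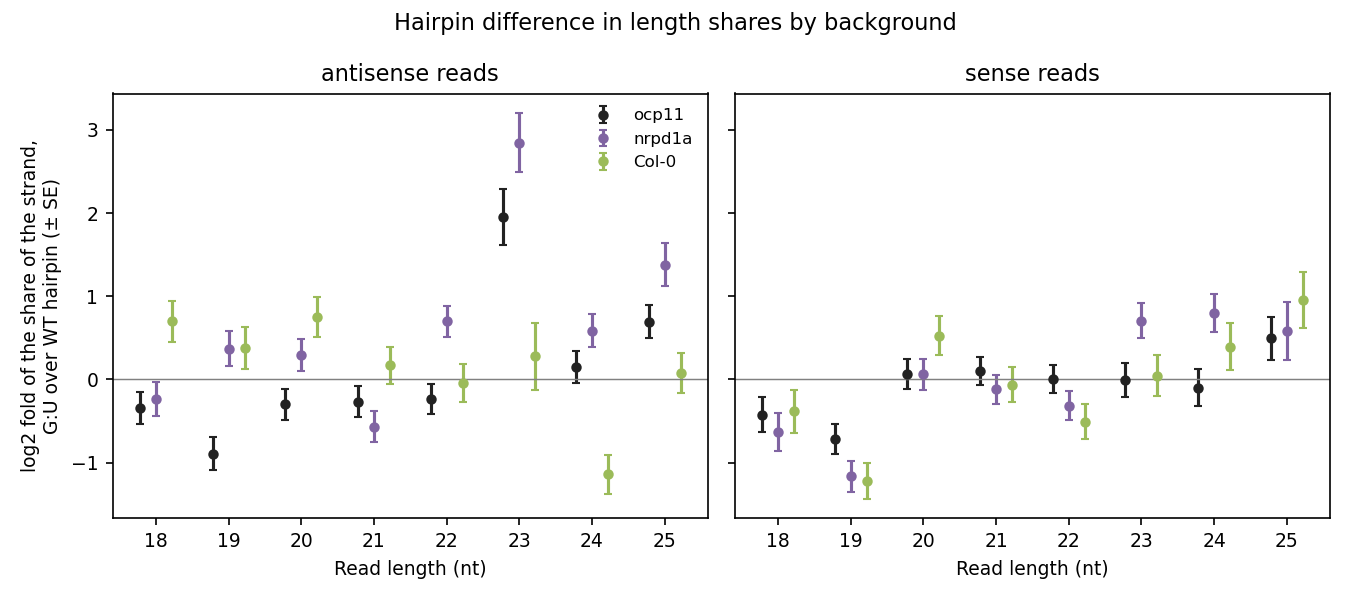
Fitted log2 difference in the share of a strand between G:U and WT hairpins (vertical axis, error bars are 1 SE of the edgeR fit) by read length in nt (horizontal axis), for antisense reads (left) and sense reads (right), in ocp11, nrpd1a and Col-0. Positive values are higher with the G:U hairpin. Antisense 23 nt is at 1.95 in ocp11, and antisense 19 nt is at -0.89 in ocp11 against 0.37 in nrpd1a.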

How the data were processed

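The authors deposited raw read counts for each library, strand, stem (WT or GU) and read length (18 to 25 nt), per the file headers. Reads were handled with cutadapt and Bowtie 1.0 on the TAIR10 build, per the submitters' processing notes. The sources used here do not say how reads that match both stems were assigned. The 4 ocp11 libraries come from the second of 2 tables, where each library has 4 entries headed as replicates. These were taken as repeat runs and summed. In chi-square tests of counts, the runs of G:U library 6 (adjusted p = 0.00210) and WT library 11 (0.0201) differed beyond sampling noise, whereas those of G:U library 4 (0.651) and WT library 10 did not pass. Groups follow sample titles. The number of nrpd1a WT library 3 differs between its title and the deposited counts, and it was matched as the remaining library of its group. Sense reads were taken from the GU stem in G:U libraries and from the WT stem in WT libraries, and antisense reads from the WT stem.

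Shares, ratios and Wilson intervals were computed in Python 3.11.15 with scipy 1.17.1. Counts of 16 classes were fitted with edgeR 4.0.16 in R 4.3.3 (quasi-likelihood, common dispersion). No filter on low counts was used, and the log of the strand total was the offset. Log2 ratios were fitted with limma 3.58.1. Each fit covered the 11 libraries of the second table in 6 groups. Their p-values use the spread within the groups of 2 libraries, and the Col-0 WT group of 1 library adds none. Single values per library were compared with exact permutation tests. DESeq2 1.42.0, other scalings, lengths, library sets and left-out libraries were alternatives, and tests with each class or length on its own spread, and without 23 nt reads, were added after seeing the data. The threshold was an adjusted p of 0.05. The tables hold no genes, and all 16 classes are named, 21 to 24 nt in full and the others with their shares. The libraries, classes and tests were chosen with earlier results of these data known. Hairpins against GUS were not analysed here.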

Additional observations from a re-analysis of the deposited data

Results flagged for a closer look

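The hairpin difference (G:U minus WT, log2 share of the strand) in ocp11 differed from that in nrpd1a by -1.26 at antisense 19 nt and by -0.93 at antisense 22 nt in edgeR's interaction test. For the antisense-to-sense ratio the same contrast was -1.51 at 19 nt and -1.04 at 22 nt in limma's test. Over 14 alternatives, run with edgeR, DESeq2 or limma, the antisense 19 nt value ran from -1.55 to -1.03 and passed in 11 of them.

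Against Col-0 the contrast was -1.04 at antisense 18 nt, -1.27 at antisense 19 nt, -1.05 at antisense 20 nt, 1.67 at antisense 23 nt and 1.29 at antisense 24 nt in edgeR's test. For the antisense-to-sense ratio it was 2.66 at 23 nt, 2.93 at 24 nt and 2.22 at 25 nt in limma's test. In Col-0 each of these rests on 1 library with the WT hairpin.

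Reads on the stem that was not used for a strand were above the limit that a count of 0 allows. Antisense reads on the GU stem made up 0.522% of the antisense reads (526 reads) in G:U library 4 and 0.823% (1771 reads) in library 6. Sense reads on the WT stem made up 0.0934% of the sense reads (394 reads) in G:U library 4 and 0.440% (3549 reads) in library 6. Of the antisense reads on the GU stem, 10.3% in G:U library 4 and 35.9% in library 6 were 24 nt long. What these reads come from was not tested.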

How the results depend on the processing

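The difference in antisense share in ocp11 stayed between -27.1 and -25.3 percentage points, and its contrast with nrpd1a between 3.68 and 5.66 points, under all alternatives run for them. The number of size classes called between hairpins in ocp11 (4 of 16) was 1 of 10 with lengths of 20 to 24 nt, 1 with the ocp11 libraries alone, 0 with the first table's libraries added to the edgeR fit (2 at an unadjusted p under 0.05), 9 with the total of both strands and TMM factors, and 0 with limma on log2 odds and each class on its own spread (4 at an unadjusted p under 0.05). Leaving out 1 library gave 2 to 10. DESeq2 called 4, the same classes as edgeR. The number of lengths called for the ratio (7 of 8) was 4 of 5 with 20 to 24 nt, and 7 to 8 with 1 library left out. For the contrast with nrpd1a (2 of 16 classes) the number was 1 with 20 to 24 nt, 0 with the first table added, with TMM and with own spreads, and 1 to 7 with 1 library left out. For the contrast with Col-0 (5 of 16) it was 3 with 20 to 24 nt, 0 with the first table added and with own spreads, 6 with TMM (2 shared with the 5), 4 with DESeq2 (without antisense 23 nt), and 5 to 8 with 1 library left out. Fewer lengths were tested with 20 to 24 nt, and for the other settings the cause was not tested. With 1 library left in a group, that library is assumed to vary like the other groups.

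With the total of both strands the median log2 difference of all 16 classes was -0.17 in place of -0.05, that of the antisense classes -1.62 in place of -0.25, since the strand balance then enters. Under it antisense 24 nt (-1.19), antisense 25 nt (-0.65), sense 23 nt (0.42) and sense 24 nt (0.33) changed direction. Sense 22 nt changed sign with 20 to 24 nt (-0.036), with the first run entry (-0.015) and with log2 odds, moderated or not (-0.0015), and the 23 nt ratio with the first run entry (0.026). Leaving out 1 library changed the sign of uncalled log2 differences, which ran from -0.078 to 0.42 for antisense 24 nt, -0.11 to 0.26 for sense 20 nt, -0.036 to 0.23 for sense 21 nt, -0.13 to 0.12 for sense 22 nt, -0.22 to 0.21 for sense 23 nt, -0.43 to 0.22 for sense 24 nt, -0.017 to 0.86 for sense 25 nt and -0.69 to 0.65 for the 23 nt ratio. Antisense 23 nt was called in 13 of 15 alternatives (0.61 to 2.53), antisense 19 nt in 12 of 15, sense 19 nt in 10 of 15 and antisense 25 nt in 9 of 14. Of the single values recomputed, 436 kept direction and side of the threshold, 38 lost a call, 12 gained one and 22 changed sign.

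No paired analysis was possible because the ocp11 libraries compared share no replicate number. The tables hold no library totals, so depth limits the shares through counting error only, and groups of 2 libraries limit every test.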

Other observations

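The 4 ocp11 libraries can also be ordered by how far apart their length profiles are, taken as the percentage of reads that would have to change length to turn one profile into the other. On the sense strand, G:U library 4 was 5.14% from WT library 10 and G:U library 6 was 3.90% from WT library 11. Libraries of the same hairpin were farther apart, at 11.1% for G:U libraries 4 and 6 and 9.98% for WT libraries 10 and 11. The nearest library on the sense strand was thus one with the other hairpin in each case. On the antisense strand G:U library 4 was 3.96% from WT library 11 and 8.21% from WT library 10, whereas G:U library 6 was 20.9% and 27.8% from them and 19.5% from G:U library 4. Without 23 nt reads, G:U library 6 was 8.04% from G:U library 4 and 6.40% from WT library 11.

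The profiles of both strands of a library were 6.29% apart in G:U library 4 and 20.4% in library 6, against 7.95% in WT library 10 and 9.12% in WT library 11. Without 23 nt reads these distances were 3.20% and 5.74% in the G:U libraries, against 8.24% and 9.48% in the WT libraries, so that the strands of the G:U libraries were then closer in length than those of the WT libraries.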
